A study of Homo sapiens with 20 samples.

Results

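Expression of 9 genes listed under B cell receptor signalling was followed in LP-1 and Raji, human cell lines from blood cancers, after treatment with an inhibitor of BET proteins. The genes are the signal chains CD79A and CD79B, the kinases LYN, SYK and BTK, the adaptors BLNK, BANK1 and SCIMP, and the inhibitory receptor CD22. They were chosen by name, with earlier results of these data known, from the 14232 genes that have a probe set with a single gene symbol. Counts of members called, set beside the share of all probe sets, are therefore given as a description. Each gene is read from its probe set with the highest mean over all arrays. All 9 were measured. CD22 had 1 other probe set, and no filter on dim probe sets was applied.

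LP-1 comes from multiple myeloma, in which plasma cells are the cancer cells, and Raji from Burkitt lymphoma, a B cell cancer. Cells of each line were left untreated (0 h) or received 500 nM of the BET inhibitor or of an enantiomer without activity (below, inactive enantiomer), a molecule that is its mirror image, and were collected after 4 or 8 h. This gave 10 groups of 2 biological replicates, hybridised to 20 exon arrays. The compound is not named here, each line stands alone for its cancer, and untreated cells were collected at 0 h alone. LP-1 was grown in IMDM and Raji in RPMI, so that line and medium cannot be told apart.

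The B cell receptor is an antibody molecule in the membrane that cannot signal by itself. Its partners CD79A and CD79B carry tyrosine motifs, which the SRC-family kinase LYN phosphorylates once antigen binds. SYK docks on these motifs and phosphorylates the adaptor BLNK, which brings BTK and phospholipase C gamma together and opens the calcium response. BANK1 and SCIMP are further adaptors of B cells: BANK1 binds LYN and a calcium channel of the endoplasmic reticulum, and SCIMP is a small membrane protein that binds LYN. CD22 works as a brake, since its phosphorylated tail recruits the phosphatase encoded by PTPN6. BET proteins are bromodomain proteins that bind acetylated histones and help transcription, and BET inhibitors release them from chromatin.

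All values are log2 expression levels. The array medians lay between 5.13 and 5.39 and the 25th percentiles between 3.73 and 3.89, and replicate arrays correlated with Pearson's r of 0.973 to 0.989 across probe sets. Replicate 1 of LP-1 with BET inhibitor at 4 h and replicate 1 of Raji with inactive enantiomer at 4 h had low 75th percentiles, of 6.80 and 6.75. Marker means went with the labels of the lines. The mean of 6 B cell markers per array was 7.33 to 8.27 in Raji and 4.50 to 5.20 in LP-1. The mean of the 7 plasma cell markers was 7.98 to 9.09 in LP-1 and 5.39 to 6.15 in Raji. MS4A1, which encodes CD20, had a mean of 10.9 in untreated Raji and 5.38 in untreated LP-1, and IRF4, a transcription factor of plasma cells, had means of 5.44 and 11.1. Not every marker followed: the B cell markers FCER2 and CIITA had means of 5.01 and 7.20 in untreated Raji and 4.93 and 6.87 in untreated LP-1. The plasma cell marker CD38 was higher in untreated Raji, at 8.92, than in untreated LP-1, at 8.37. Markers of T and NK cells had array means of 3.77 to 4.48, markers of myeloid cells 3.30 to 3.86 and markers of epithelial cells and fibroblasts 4.24 to 4.69 over both lines. Among these, the T cell marker IL7R had a mean of 6.94 in untreated Raji. The epithelial marker KRT8 had means of 9.11 in untreated Raji and 8.99 in untreated LP-1.

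The first comparison asked how far the lines differ in these genes before treatment. All members but LYN were higher in untreated Raji than in untreated LP-1: 8 of 9 passed an adjusted p of 0.05, while 6.79% of all probe sets were called higher. The median difference of the 9 members was 3.85 log2 units, beside -0.03 over all probe sets. Each difference below is Raji minus LP-1 with its standard error, from limma with 2 arrays a group and Benjamini-Hochberg adjustment over 22011 probe sets.

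Both signal chains were higher in Raji. CD79A read 8.84 and 8.999 on the untreated Raji arrays and 4.07 and 4.35 on those of LP-1, a difference of 4.71 ± 0.16 or 26.1-fold (limma adjusted p = 2.8e-10). CD79B read 7.54 and 7.84 in Raji and 5.74 and 5.76 in LP-1, a difference of 1.94 ± 0.21 or 3.83-fold (adjusted p = 1.19e-05, limma). For both chains, every Raji array of any treatment lay above every LP-1 array.

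Among the kinases, LYN stood apart from SYK and BTK. LYN read 8.59 and 8.58 in untreated Raji and 8.41 and 8.65 in untreated LP-1, so the groups overlapped, and the difference of 0.05 had a 95% interval of -0.35 to 0.46 (limma adjusted p = 0.898). SYK read 7.82 and 7.75 in Raji and stayed between 3.72 and 4.16 on all LP-1 arrays, a 16.3-fold difference between the untreated groups (adjusted p = 3.4e-09, limma). BTK read 8.07 and 8.10 in Raji and between 2.84 and 3.40 in LP-1, a 28.7-fold difference (adjusted p = 2.8e-10, limma). In LP-1, BTK lay below the 25th percentile of the array on 10 of 10 arrays and SYK on 5 of 10, so that a fold against LP-1 rests on values near the low end of the scale.

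Of the adaptors, BLNK lay above the 25th percentile on every array of both lines, whereas BANK1 and SCIMP were low in LP-1. BLNK read 9.04 and 8.97 in untreated Raji and 6.37 and 6.27 in untreated LP-1, a 6.46-fold difference (limma adjusted p = 6.1e-08). BANK1 read 6.73 and 6.37 in Raji and 2.80 and 2.60 in LP-1, a 14.5-fold difference (adjusted p = 5.88e-08, limma), and was below the 25th percentile on 10 of 10 LP-1 arrays. SCIMP read 5.88 and 5.77 in Raji and 3.51 and 3.67 in LP-1, a 4.71-fold difference (adjusted p = 3.69e-05, limma), and was below the 25th percentile on 9 of 10 LP-1 arrays. CD22, the inhibitory receptor, had the largest estimate of the 9 members: it read 9.88 and 9.79 in Raji and 4.30 and 4.44 in LP-1, or 44.1-fold (adjusted p = 5.38e-10, limma), while its other probe set gave 2.82 log2 units. Over all treatments, 7 of 9 members (all but LYN and SCIMP) had each of the 10 Raji arrays above each of the 10 LP-1 arrays, which 4.91% of all probe sets did. No member had the reverse order, which 10.4% did.

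**Figure D1:**
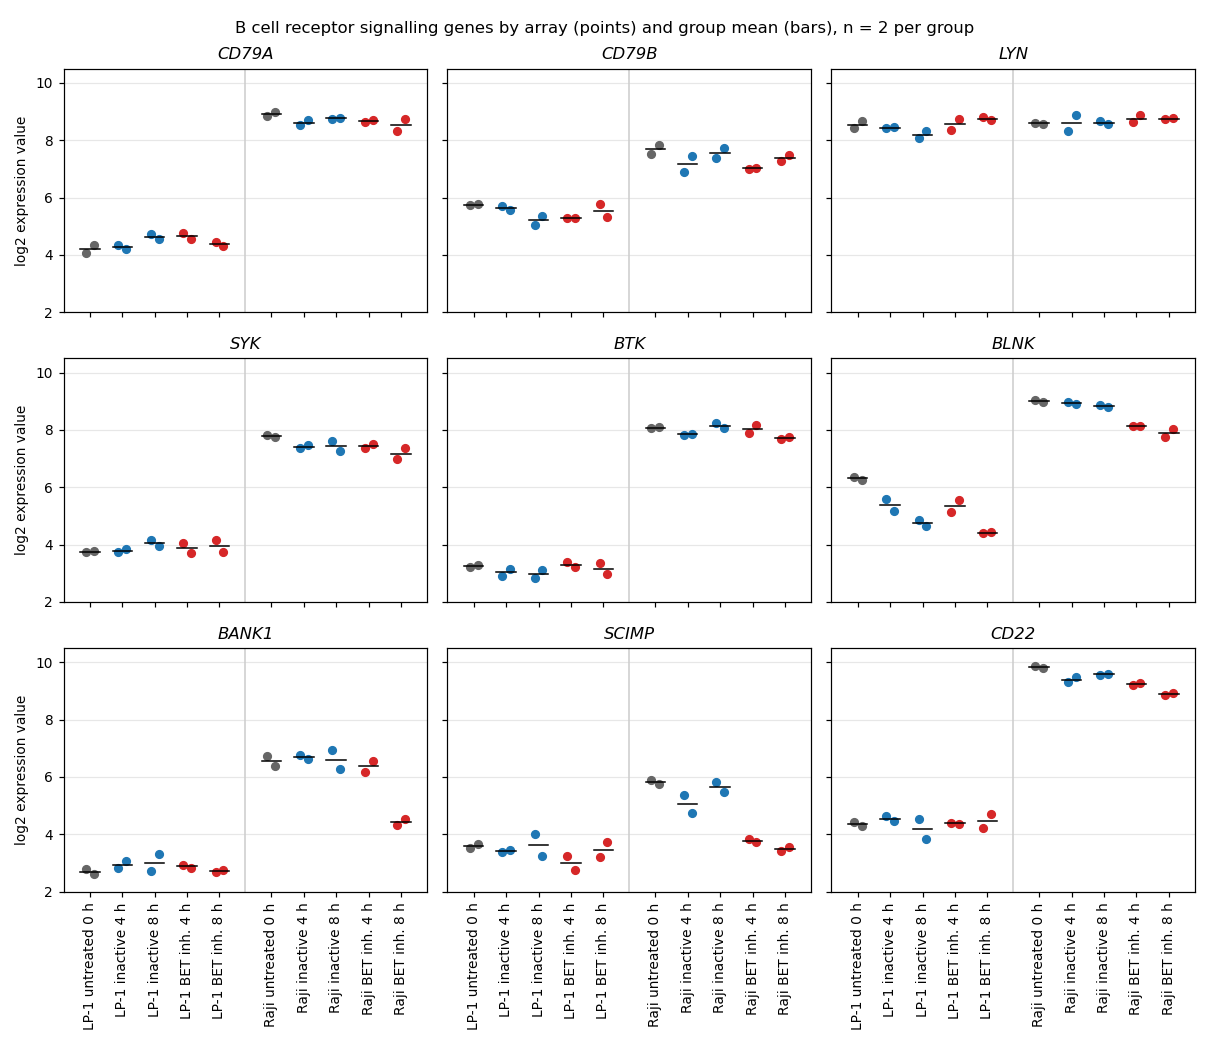
Log2 expression level (vertical axis, same scale in all panels) of the 9 genes in the 10 groups (horizontal axis: line, treatment and time). A point stands for each array and a bar for the mean of 2 arrays. Among the Raji groups, the mean with BET inhibitor at 8 h is the lowest for all members but CD79B and LYN, and LYN is at a like level in both lines.

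The main question was what the BET inhibitor changed beyond the inactive enantiomer, compared at equal dose and time. In Raji the adaptors BLNK and SCIMP fell at 4 h, and BLNK, BANK1 and SCIMP fell at 8 h, where BANK1 and SCIMP were lowered 4.47-fold and 4.52-fold. No member rose. Called lower were 2 of 9 members at 4 h, against 0.341% of all probe sets, and 3 of 9 at 8 h, against 1.05%. Neither signal chain and none of the kinases LYN, SYK and BTK passed the test at either time. The median difference of the 9 members was -0.14 at 4 h and -0.43 at 8 h, beside 0.01 and -0.000695 over all probe sets.

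SCIMP, the small LYN-binding adaptor, had the largest estimated fall of the 9 members at both times, by a small margin over BANK1 at 8 h. At 4 h it read 3.82 and 3.72 with BET inhibitor and 5.37 and 4.73 with inactive enantiomer, a fall of 2.43-fold (log2 difference -1.28 ± 0.27, limma adjusted p = 0.0362). At 8 h the readings were 3.41 and 3.56 against 5.82 and 5.49, a fall of 4.52-fold (-2.18 ± 0.27, adjusted p = 0.00263, limma). All 4 BET inhibitor arrays lay below all 6 other Raji arrays. On 3 of 10 Raji arrays SCIMP was below the 25th percentile of the array, and its level at 8 h was close to the 3.51 and 3.67 of untreated LP-1. The spread between the inactive enantiomer arrays at 4 h was wide, and SCIMP there also read lower than in untreated cells, by 0.77 ± 0.27, which did not pass the test (adjusted p = 0.53, limma).

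BANK1, the adaptor that links LYN to calcium release, was lower at 8 h. At 4 h it read 6.19 and 6.55 with BET inhibitor and 6.77 and 6.64 with inactive enantiomer, with a difference of -0.33 and a 95% interval of -0.85 to 0.18 (limma adjusted p = 0.6). At 8 h it read 4.34 and 4.52 against 6.92 and 6.26, a fall of 4.47-fold (-2.16 ± 0.24, adjusted p = 0.000975, limma). The arrays at 8 h stood well below the other 8 Raji arrays, of which the lowest was 6.19. The difference of the response between 8 h and 4 h was -1.83 ± 0.33, with an unadjusted p of 0.000124 and an adjusted p of 0.177 in limma. No probe set on the array passed that test between times in Raji, so a later onset of BANK1 is not shown.

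BLNK, the adaptor that SYK phosphorylates, was lowered at both times. It read 8.13 on both BET inhibitor arrays at 4 h and 8.97 and 8.91 on those of inactive enantiomer, a fall of 1.76-fold (-0.81 ± 0.17, limma adjusted p = 0.0304). At 8 h it read 7.74 and 8.04 against 8.86 and 8.78, a fall of 1.91-fold (-0.93 ± 0.17, adjusted p = 0.0156, limma). No BET inhibitor array reached the lowest of the other 6 Raji arrays, 8.78. The change from 4 to 8 h was -0.12 with a 95% interval of -0.63 to 0.39 (adjusted p = 0.997, limma).

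CD22, the inhibitory receptor, was also below all 6 other Raji arrays on all 4 BET inhibitor arrays, but no comparison of BET inhibitor with inactive enantiomer called it. At 4 h it read 9.21 and 9.26 with BET inhibitor and 9.30 and 9.47 with inactive enantiomer, a difference of -0.15 (95% interval -0.57 to 0.28, limma adjusted p = 0.826). At 8 h it read 8.86 and 8.93 against 9.56 and 9.59, a difference of -0.68 ± 0.20 (95% interval -1.11 to -0.25, adjusted p = 0.12, limma). Its other probe set gave -0.56 ± 0.27 at 8 h (adjusted p = 0.424, limma). On that probe set the 4 BET inhibitor arrays, 5.44 to 5.96, overlapped with the 6 other Raji arrays, of which the lowest was 5.30. With 1 probe set per gene, BLNK, SCIMP and CD22 were the members whose BET inhibitor arrays did not overlap with the rest of Raji. These were 3 of 9, beside 3.16% of all probe sets, and for CD22 the other probe set did not show it.

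For the signal chains and LYN the intervals bound what could have been missed. CD79A differed by 0.07 at 4 h (95% interval -0.27 to 0.40) and by -0.22 at 8 h (-0.56 to 0.12). CD79B differed by -0.14 at 4 h (-0.59 to 0.31) and by -0.16 at 8 h (-0.62 to 0.29). LYN differed by 0.15 at either time, with 95% intervals of -0.26 to 0.56. The intervals of these 3 genes leave room for changes of up to about 0.6 log2 units and exclude falls of the size measured in BANK1 and SCIMP at 8 h.

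SYK read 7.38 and 7.51 with BET inhibitor at 4 h against 7.35 and 7.49, and 6.98 and 7.36 at 8 h against 7.60 and 7.26, where the difference was -0.26 (95% interval -0.65 to 0.13, limma adjusted p = 0.651). BTK read 7.88 and 8.17 at 4 h against 7.81 and 7.87, and 7.68 and 7.76 at 8 h against 8.24 and 8.05. The difference for BTK at 8 h was -0.43 ± 0.16 with an interval of -0.77 to -0.08 that lies below 0, but it did not pass after adjustment over all probe sets (adjusted p = 0.251, limma).

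The mean of the responses at 4 and 8 h, a comparison chosen after seeing the data, used 4 arrays on each side. It called the same 3 adaptors in Raji, beside 1.99% of all probe sets called lower: BLNK at -0.87 ± 0.12 (limma adjusted p = 0.00107), BANK1 at -1.25 ± 0.17 (adjusted p = 0.00106, limma) and SCIMP at -1.73 ± 0.19 (adjusted p = 0.000405, limma). CD22 stood at -0.41 ± 0.14 and did not pass (adjusted p = 0.117, limma). Each of these 3 calls held without any 1 of the 8 arrays. Of the calls at single times, BANK1 and SCIMP at 8 h held without each of the 4 arrays, with adjusted p values up to 0.0174 and 0.033 in limma.

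The remaining calls at single times were lost in 3 or 4 of the 4 cases with 1 array left out. BLNK at 4 h was lost without any 1 of them (limma adjusted p from 0.0992 without inactive enantiomer replicate 2 to 0.21 without BET inhibitor replicate 2). SCIMP at 4 h was called without inactive enantiomer replicate 2 (adjusted p = 0.0452, limma) and lost without BET inhibitor replicate 1 (0.125), BET inhibitor replicate 2 (0.255) or inactive enantiomer replicate 1 (0.213). BLNK at 8 h was called without BET inhibitor replicate 2 (adjusted p = 0.0487, limma) and lost without BET inhibitor replicate 1 (0.12), inactive enantiomer replicate 1 (0.0843) or replicate 2 (0.0756). A fit of the 4 compared arrays alone called none of them, with adjusted p values in limma of 0.295 for BANK1 and SCIMP and 0.322 for BLNK at 8 h, and of 0.267 for BLNK and 0.281 for SCIMP at 4 h.

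**Figure D2:**
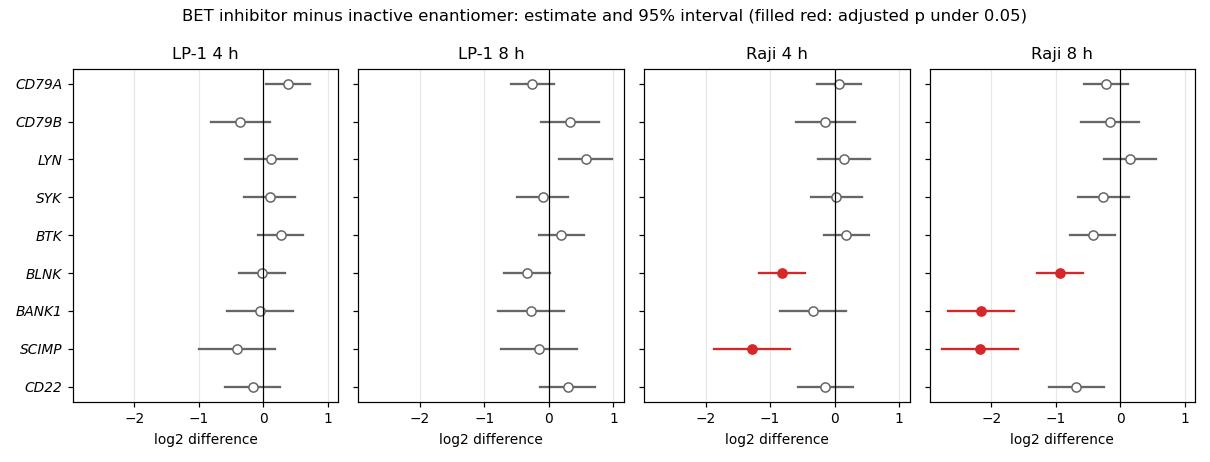
Log2 difference between BET inhibitor and inactive enantiomer (horizontal axis) for the 9 genes in each line at 4 and 8 h, with 95% intervals from limma; filled red points have an adjusted p under 0.05. The red points are BLNK and SCIMP in Raji at 4 h and BLNK, BANK1 and SCIMP in Raji at 8 h, all below 0.

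Of 6 measured B cell markers, 1 was called lower in Raji at 4 h and 2 at 8 h, beside 0.341% and 1.05% of all probe sets. The mean of the 6 B cell markers was 7.57 on both BET inhibitor arrays at 4 h against 7.89 and 7.99 with inactive enantiomer, and 7.33 and 7.46 at 8 h against 8.04 and 8.09. CIITA, the master activator of HLA class II genes, was called at 4 h (-0.50, limma adjusted p = 0.0314) and 8 h (-0.62, adjusted p = 0.0103, limma), and PAX5, the transcription factor that keeps B cell identity, at 8 h (-0.80, adjusted p = 0.0327, limma). MS4A1, CR2, CD37 and FCER2 passed at neither time, with differences of -1.14, -0.67, -0.55 and -0.23 at 8 h. The 7 plasma cell markers had array means of 5.39 and 5.46 at 8 h against 6.07 and 6.11. TNFRSF17, PRDM1 and SLAMF7 were 3 of 7 called lower there, beside 1.05% of all probe sets, while CD38 stood at 0.38, IRF4 at 0.02, SDC1 at -0.0029 and XBP1 at -0.52, none past the threshold. IL7R was the 1 of 10 measured T and NK cell markers called, at 4 h (-1.35, adjusted p = 0.0225, limma). Their part in the result was not tested, and in bulk RNA fewer cells of a type and less RNA per cell cannot be told apart.

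The promoters of BLNK and BANK1, 2 of the 3 lowered adaptors, are shown because both genes were called lower in Raji at 8 h. That of CD79A, which did not pass the test, is given for comparison. Each runs 5′ to 3′ on the gene's strand from 250 bases before to 50 bases after the start, from RefSeq on GRCh38.p14: BLNK at chr10:96271520-96271819 on the minus strand, BANK1 at chr4:101790480-101790779 on the plus strand and CD79A at chr19:41877029-41877328 on the plus strand. The array values were made on hg19, and no coordinate of the arrays is used. Capitals mark GAGGAA (the PU box of PU.1) or GGAAGT (an ETS core) on either strand.
BLNK: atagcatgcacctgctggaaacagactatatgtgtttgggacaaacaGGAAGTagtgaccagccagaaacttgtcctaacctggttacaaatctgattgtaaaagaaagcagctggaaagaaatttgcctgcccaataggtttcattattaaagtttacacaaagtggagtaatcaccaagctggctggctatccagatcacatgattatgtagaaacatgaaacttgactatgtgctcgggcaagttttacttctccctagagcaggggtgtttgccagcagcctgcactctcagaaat
BANK1: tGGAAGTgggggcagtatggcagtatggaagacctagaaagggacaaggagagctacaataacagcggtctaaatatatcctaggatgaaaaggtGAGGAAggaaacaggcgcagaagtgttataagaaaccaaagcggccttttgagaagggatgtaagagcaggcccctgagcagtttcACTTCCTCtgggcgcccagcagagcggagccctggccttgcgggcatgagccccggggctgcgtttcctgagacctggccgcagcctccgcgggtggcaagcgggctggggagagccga
CD79A: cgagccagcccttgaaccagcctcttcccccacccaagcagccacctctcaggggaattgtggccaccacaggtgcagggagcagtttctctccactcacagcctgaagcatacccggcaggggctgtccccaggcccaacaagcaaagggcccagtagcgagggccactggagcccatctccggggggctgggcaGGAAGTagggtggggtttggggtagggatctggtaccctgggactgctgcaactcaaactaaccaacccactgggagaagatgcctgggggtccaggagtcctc
All 3 windows hold GGAAGT, once in BLNK and CD79A and at 2 places in BANK1, and BANK1 alone of the 3 also holds GAGGAA, on both strands. The reverse-strand matches in BANK1 overlap in 1 run. GGAAGT, a motif added after these sequences were seen, occurs in 22.8% of 35116 promoter windows of the same length, and GAGGAA in 27.9%.

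RefSeq windows were used for 6 of the 9 members, 10 windows in all. No window was used for CD79B, LYN or SCIMP, so the matches do not cover these genes. GGAAGT was found in 5 of the 10 windows, 1 each of CD79A, SYK, BTK, BLNK and BANK1, and GAGGAA in 5, of SYK, BTK and BANK1. The octamer ATGCAAAT, bound by POU factors of B cells, the E-box CACGTG, bound by MYC, and a consensus motif of NF-kB were found in none of the 10, on either strand. They occur in 1.77%, 7.26% and 0.191% of all windows. GGAAGT was thus found in members called lower in Raji and in members not called, and a match is a description of letters.

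In LP-1 limma called 0 of 9 members at 4 h, beside 2.28% of all probe sets, and 0 of 9 at 8 h, beside 5.73%. At an unadjusted p under 0.05 there was 1 of 9 at either time. The mean response over both times called 0 of 9, beside 7.06% of all probe sets, with LYN nearest at 0.34 ± 0.13 (adjusted p = 0.166, limma). No member had all 4 BET inhibitor arrays below or above all 6 other LP-1 arrays, which 4.85% and 2.27% of all probe sets did. BANK1 lay between 2.60 and 3.30 and SCIMP between 2.76 and 3.99 on all 10 LP-1 arrays. The differences were -0.05 and -0.28 for BANK1 and -0.40 and -0.16 for SCIMP, at 4 and 8 h. SCIMP's interval at 4 h, -0.99 to 0.19, does not exclude a fall as large as its lower bound. BTK and BANK1 lay below the 25th percentile on 10 of 10 LP-1 arrays, SCIMP on 9 and SYK on 5. For these members a fall in LP-1 could be hidden by the low end of the scale.

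LYN came closest to a call in LP-1. At 8 h it read 8.79 and 8.72 with BET inhibitor and 8.06 and 8.31 with inactive enantiomer, so that the groups did not overlap, a difference of 0.57 ± 0.19 (95% interval 0.16 to 0.97, limma adjusted p = 0.109). After quantile normalization of the deposited values it was called, at 0.50 (adjusted p = 0.0457, limma). At 4 h it read 8.35 and 8.76 against 8.42 and 8.45, which overlap. In untreated LP-1, LYN read 8.41 and 8.65, between the BET inhibitor and inactive enantiomer arrays of 8 h. Inactive enantiomer at 8 h differed from untreated cells by -0.34 (95% interval -0.75 to 0.06, limma adjusted p = 0.423). Part of the difference at 8 h is thus a lower reading with inactive enantiomer. CD79A read 4.78 and 4.56 at 4 h against 4.35 and 4.21, a difference of 0.39 with an interval of 0.05 to 0.72 that did not pass (adjusted p = 0.268, limma), and at 8 h 4.43 and 4.32 against 4.72 and 4.54. CD79B read 5.29 and 5.28 at 4 h against 5.72 and 5.55, and 5.77 and 5.31 at 8 h against 5.05 and 5.37. Neither chain kept its direction from 4 to 8 h, and the difference between times passed for neither (adjusted p = 0.224 and 0.34 in limma).

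BLNK in LP-1 was lower with the inactive enantiomer at 8 h than in untreated cells, and did not pass the test between the compounds. It read 6.37 and 6.27 in untreated cells, 5.59 and 5.17 with inactive enantiomer at 4 h and 4.87 and 4.63 at 8 h. With BET inhibitor it read 5.15 and 5.57 at 4 h and 4.40 and 4.43 at 8 h. The inactive enantiomer group at 8 h was 2.96-fold lower than untreated cells (-1.56 ± 0.17, limma adjusted p = 0.00257), the single member called among 9, beside 0.459% of all probe sets. At 4 h the difference was -0.94 ± 0.17 (adjusted p = 0.221, limma). The 8 h call held without each of the 4 arrays (adjusted p up to 0.043) and was lost in a fit of LP-1 arrays alone (0.134) and of the 4 compared arrays alone (0.309). BET inhibitor differed from inactive enantiomer by -0.02 at 4 h (95% interval -0.38 to 0.34) and by -0.34 ± 0.17 at 8 h (-0.70 to 0.02, adjusted p = 0.294, limma). No untreated cells were collected at 4 or 8 h, so compound and time in culture cannot be told apart.

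Inactive enantiomer and untreated cells gave no other call among the 9 members. At 4 h in LP-1 and at 4 and 8 h in Raji limma called 0 of 9, beside 0.0136%, 0% and 0% of all probe sets, and 1, 3 and 0 members had an unadjusted p under 0.05. In Raji, BLNK with inactive enantiomer read between 8.78 and 8.97, near the 9.04 and 8.97 of untreated cells, unlike in LP-1. These comparisons share their inactive enantiomer arrays with those of the BET inhibitor.

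Whether the lines responded differently was tested as the difference between their responses. At 8 h BANK1 was called, with a difference of -1.88 ± 0.33, lower in Raji, (limma adjusted p = 0.0435), 1 of 9 members beside 0.154% of all probe sets called lower. SCIMP followed at -2.02 ± 0.38 (adjusted p = 0.058, limma), CD22 at -0.97 ± 0.28 (adjusted p = 0.246, limma), BTK at -0.62 ± 0.23 (adjusted p = 0.407, limma) and BLNK at -0.59 ± 0.24 (adjusted p = 0.453, limma), none of them past the threshold. The other probe set of CD22 gave -0.10 (adjusted p = 0.971, limma). At an unadjusted p under 0.05 there were 5 of 9. At 4 h limma called 0 of 9, beside 0.114% of all probe sets, with 2 of 9 at an unadjusted p under 0.05: BLNK stood at -0.79 ± 0.24 (adjusted p = 0.162, limma) and SCIMP at -0.88 (adjusted p = 0.306, limma). For the mean over both times, SCIMP was called at -1.45 ± 0.27 (adjusted p = 0.0278, limma), beside 0.404% of all probe sets called lower, with BANK1 at -1.08 (0.0557) and BLNK at -0.69 (0.0809).

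These calls between lines were close to the threshold. That of BANK1 held without replicate 2 of inactive enantiomer at 8 h of either line (limma adjusted p = 0.0435 for LP-1 and 0.029 for Raji). It was lost without any 1 of the other 6 arrays: LP-1 BET inhibitor replicate 1 (0.125) or 2 (0.0654), LP-1 inactive enantiomer replicate 1 (0.121), Raji BET inhibitor replicate 1 (0.135) or 2 (0.118), or Raji inactive enantiomer replicate 1 (0.118). That of SCIMP held without 6 of 16 arrays, with adjusted p values of up to 0.0824. BANK1 and SCIMP were near the bottom of the scale in LP-1, and the part of this in the difference was not tested. Between times, limma called 0 of 9 members in either line, beside 0% of all probe sets, with 2 of 9 in LP-1 and 3 of 9 in Raji at an unadjusted p under 0.05.

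Other genes of the antigen receptor pathway were counted from a list of 68 in 5 roles, of which 60 were measured. In Raji 1 of 60 was lower and 1 higher at 4 h, and 6 were lower and 1 higher at 8 h. The share called was 3.33% at 4 h and 11.7% at 8 h, beside 1.78% and 1.88% of all probe sets. In LP-1 6 were lower and 1 higher at 4 h, and 5 lower and 7 higher at 8 h, or 11.7% and 20% called beside 2.28% and 5.73%. The median difference of the 60 genes was -0.09 and -0.14 in Raji at 4 and 8 h and -0.11 and 0.09 in LP-1. Leaving out 1 array moved these counts: in Raji 0 to 1 were then called either way at 4 h, and 1 to 3 lower and 0 to 1 higher at 8 h. In LP-1 1 to 8 were then called lower and 0 to 1 higher at 4 h, with 8 lower without BET inhibitor replicate 2, and 0 to 2 lower and 1 to 7 higher at 8 h, with 7 higher again without BET inhibitor replicate 2.

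In Raji, inhibitory receptors and phosphatases held the 1 fall at 4 h and 3 of the 6 falls at 8 h, of 14 measured genes. Over all probe sets, 0.341% and 1.05% were called lower. The 14 genes had a median of -0.45 at 4 h and -0.55 at 8 h, beside 0.01 and -0.000695 over all probe sets. DOK3, an adaptor that restrains signals downstream of LYN, read 7.85 and 7.90 with BET inhibitor at 8 h and 9.87 and 9.49 with inactive enantiomer, a fall of 3.50-fold (-1.81 ± 0.27, limma adjusted p = 0.0067). At 4 h DOK3 read 8.54 and 8.42 against 9.68 and 9.63 and stood just outside the threshold (-1.18, adjusted p = 0.0504, limma). FCRL3, a receptor of the Fc receptor-like family, read 4.75 and 4.79 against 5.44 and 5.69 at 4 h and was called at both times, at -0.80 ± 0.14 (adjusted p = 0.0138) and -0.91 ± 0.14 (adjusted p = 0.00713). PTPN6, the phosphatase that CD22 recruits, read 5.30 and 5.46 at 8 h against 6.05 and 6.12, a difference of -0.71 ± 0.12 (adjusted p = 0.0119, limma). CD22 itself stood at -0.68 and short of the threshold, as given above.

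Among kinases, FGR, a SRC-family relative of LYN, was the single one of 9 called in Raji at 8 h, beside 1.88% of all probe sets. It read 6.11 and 5.96 against 7.09 and 7.40, a difference of -1.21 ± 0.22 (limma adjusted p = 0.0162). ITPR1, the calcium channel of the endoplasmic reticulum, was the single listed gene that rose: it read 7.24 and 7.36 against 6.15 and 6.31 at 4 h (1.07 ± 0.18, adjusted p = 0.0135, limma) and 7.14 and 7.34 against 6.41 and 6.005 at 8 h (1.04 ± 0.18, adjusted p = 0.0153, limma). None of these calls in Raji held without each of the 4 arrays: DOK3 and FCRL3 at 8 h held in 2 of 4 cases, and FCRL3 and ITPR1 at 4 h and PTPN6, FGR and ITPR1 at 8 h in 1 of 4.

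The genes named next were called in LP-1. TEC, a kinase of the family of BTK, read 5.16 and 5.35 at 4 h against 6.29 and 6.43, a difference of -1.11 ± 0.15 (limma adjusted p = 0.00265). At 4 h CBLB, a ubiquitin ligase (-0.84 ± 0.13, adjusted p = 0.00552), RASGRP3, an activator of RAS (-1.12 ± 0.22, adjusted p = 0.0191), and LAX1, a membrane adaptor (-1.35 ± 0.27, adjusted p = 0.0216), were lower as well. PAG1, a membrane adaptor that binds the kinase CSK and stands in the list's kinase group for that role, read 4.96 and 5.02 at 4 h against 3.83 and 3.61, and 5.93 and 5.61 at 8 h against 4.09 and 3.11. Its difference was 1.27 ± 0.23 (adjusted p = 0.0145, limma) and 2.17 ± 0.23 (adjusted p = 0.000251, limma). The 6 LP-1 arrays without BET inhibitor read from 3.11 to 4.09, around the 25th percentile of the arrays, so the size of this rise rests on values near the low end of the scale. In Raji PAG1 stayed between 7.68 and 7.98.

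At 8 h in LP-1, ITPR1 (1.03, limma adjusted p = 0.00691), PIK3R1, a regulatory subunit of PI3 kinase (1.03, adjusted p = 0.00735), and PRKCB, a protein kinase C (0.89, adjusted p = 0.0102), were higher. Their means in untreated LP-1 were 5.30, 8.13 and 6.16. These lay between the means with inactive enantiomer at 8 h (4.74, 7.70 and 5.50) and with BET inhibitor at 8 h (5.78, 8.73 and 6.40). Part of each difference is thus a lower level with inactive enantiomer than in untreated cells. PIK3CG, a catalytic subunit of PI3 kinase (-1.10, adjusted p = 0.0165), TNFRSF13B, the receptor TACI (-1.19, adjusted p = 0.0215), NFATC2, a calcium-regulated transcription factor (-0.61, adjusted p = 0.0217), and VAV3, an exchange factor (-0.72, adjusted p = 0.0275), were lower. TEC at 4 h and PAG1 at 8 h held without each of the 4 arrays. The other named calls in LP-1 held in 0 to 3 of 4 cases, TNFRSF13B and VAV3 in none. A call in LP-1 does not mean that the gene stayed level in Raji. With BET inhibitor at 8 h in Raji, NFATC2 read 6.91 and 6.86 against 7.59 and 7.52, and RASGRP3 8.24 and 8.22 against 9.20 and 8.83. LAX1 read 4.66 and 4.72 against 5.85 and 5.01 there, and TEC 7.28 and 7.16 against 7.53 and 7.29. The Raji arrays of CBLB, PIK3CG, TNFRSF13B and VAV3 overlapped at 8 h.

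**Figure D3:**
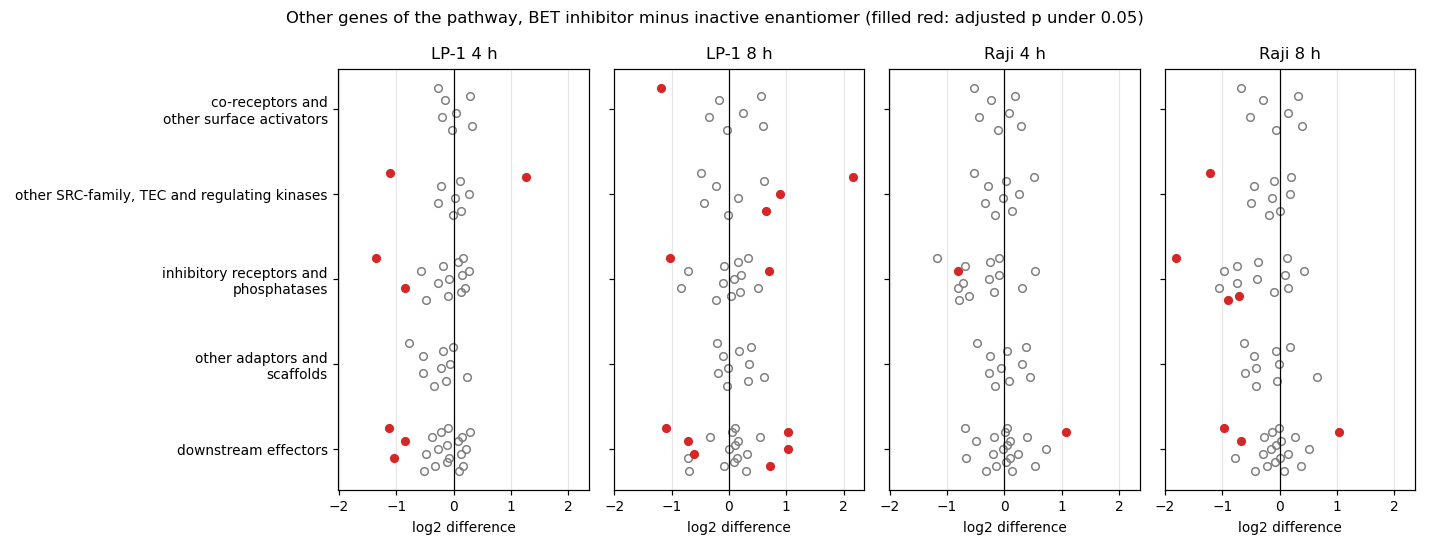
Log2 difference between BET inhibitor and inactive enantiomer (horizontal axis) for the 60 measured genes of the pathway list, by role (vertical axis). Panels give each line at 4 and 8 h, and filled red points have an adjusted p under 0.05 in limma. The inhibitory receptors and phosphatases in Raji have medians of -0.45 and -0.55, beside 0.01 and -0.000695 over all probe sets. PAG1 in LP-1 at 8 h is the point farthest to the right, at 2.17.

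The untreated lines differed in many of the 60 genes: 31 were higher in Raji, 9 higher in LP-1 and 20 not called, a share of 66.7% beside 24.3% of all probe sets. Adaptors and scaffolds other than the members held 1 of the 31 and 3 of the 9, of 10 measured. Inactive enantiomer against untreated cells called 0 of 60 in limma in any of the 4 comparisons. The shares of all probe sets called were 0.0136% and 0.504% in LP-1 at 4 and 8 h and 0% in Raji at both times. At an unadjusted p under 0.05 there were 5 and 22 of 60 in LP-1 at 4 and 8 h, and 9 and 1 in Raji. In LP-1 at 8 h the median of the 60 genes was -0.19, beside -0.08 over all probe sets. Those inactive enantiomer arrays also serve the LP-1 comparison of compounds at 8 h.

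The patterns of the 3 called adaptors were set beside 4904 genes over the 10 group means, after the mean of each line was removed. Correlations over these means share their arrays and are given as a description. SCIMP was closest to SLC43A3 (Pearson's r = 0.992), BMI1 (0.974) and CAB39L (0.967). SLC43A3, a purine base transporter, fell in Raji by 0.64 at 4 h and 0.92 at 8 h (limma adjusted p = 0.0275 and 0.00451). BANK1 was closest to CHI3L2 (0.973), CADPS (0.950) and SPARCL1 (0.945), which in Raji at 8 h fell by 1.76, 0.91 and 2.40 (adjusted p = 0.00615, 0.0149 and 0.000154 in limma). BLNK was closest to STS (0.966), ROR1 (0.959) and EXD2 (0.954), of which STS alone was called in Raji, at 8 h (-1.36, adjusted p = 0.00554, limma). Among the members, the closest pairs were SCIMP and CD22 (0.82), CD79A and SYK (0.76), BANK1 and CD22 (0.71) and BANK1 and SCIMP (0.69), while BLNK reached 0.54 with SCIMP and 0.42 with BANK1.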

How the data were processed

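Total RNA of 20 samples was measured on exon arrays. Per the submitters' processing notes, the authors summarised the arrays with RMA in Affymetrix Expression Console on hg19, and the deposited values are log2 levels per probe set, used here as deposited. RMA normalises the arrays, but the 75th percentiles of the deposited values still ran from 6.75 to 7.23. Values near background are compressed, so low genes show too small a fold. Of 22011 probe sets, 14432 have 1 gene symbol in the platform table, 2408 several and 5171 none, and 14404 were matched to RefSeq by Entrez identifier.

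limma 3.58.1 (R 4.3.3) estimated a mean for each group from the 20 arrays together (10 residual degrees of freedom, prior 2.59). Tests were two-sided and adjusted by Benjamini-Hochberg across the 22011 probe sets, in each of 13 comparisons and 3 chosen after seeing the data (means over both times). The spread behind each p-value is that between 2 biological replicates a group, pooled over groups, and the number of arrays limits precision. The fit was tested on simulated data. Members and lists were chosen with earlier results of these data known. Pathway genes are named where called, at most 4 a direction and comparison by smallest p. For each called member the 3 genes of highest correlation are named, among genes whose centred group means have an SD of at least 0.2. Replicate numbers do not pair the samples: same-numbered deviations correlated by -0.03 to 0.12 in LP-1 and -0.16 to 0.05 in Raji. Alternatives were quantile normalization, median centring, leaving out the probe sets of lowest mean (1 in 3), variances with an intensity trend, a replicate block, fewer arrays in the fit, the other probe set of CD22 and leaving out each array.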

Additional observations from a re-analysis of the deposited data

Results flagged for a closer look

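Responses to BET inhibitor against inactive enantiomer that differed between the lines by limma's test of the difference (Raji minus LP-1) were those of BANK1 at 8 h (-1.88 ± 0.33, adjusted p = 0.0435) and PAG1 at 8 h (-2.16 ± 0.33, adjusted p = 0.0234). For the mean over 4 and 8 h, a comparison chosen after seeing the data, the same test gave SCIMP (-1.45 ± 0.27, adjusted p = 0.0278), TEC (0.72 ± 0.15, adjusted p = 0.0362), PAG1 (-1.64 ± 0.23, adjusted p = 0.00712) and FCRL3 (-0.87 ± 0.14, adjusted p = 0.0132). PAG1 and TEC moved in LP-1, where PAG1 rose by 2.17 at 8 h and TEC fell by 1.11 at 4 h, while BANK1, SCIMP and FCRL3 fell in Raji. BANK1, SCIMP and FCRL3 were near the bottom of the scale in LP-1, where FCRL3 read between 3.40 and 3.71 on all 10 arrays, and PAG1 was so in LP-1 without BET inhibitor (3.11 to 4.09). The part of this in the differences was not tested.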

How the results depend on the processing

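The 8 higher calls in untreated Raji and the falls of BLNK, BANK1 and SCIMP in the mean Raji response were called under every alternative that gave a value for the gene, and no called value changed sign. The counts of members called moved as follows. Apart from the loss of SCIMP's probe set, given next, the cause was not tested. In Raji at 4 h (2 called), leaving out the dimmest probe sets gave 1, since SCIMP's probe set was among them, which also gave 2 for Raji at 8 h and for its mean response (3 called) and 7 for the untreated lines (8 called), and the fit of 1 line and the fit of the compared groups gave 0. The fit of the compared groups also gave 0 for Raji at 8 h, LP-1 inactive enantiomer against untreated at 8 h, and both differences between lines. LP-1 arrays alone gave 0 for inactive enantiomer against untreated at 8 h. Quantile normalization gave 1 (LYN) for LP-1 at 8 h and for its mean response, and 2 (BANK1 and SCIMP) for the mean difference between lines. Median centring gave 0 for the difference at 8 h. With the replicate block, which pairs arrays that share only a number, the counts were 0 for Raji at 4 h and 0 for the difference at 8 h. Leaving out 1 array gave 0 to 1 in Raji at 4 h, 2 to 3 in Raji at 8 h, 0 to 1 for the difference at 8 h and 0 to 2 for the mean difference.

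Of 31 values not called in the comparisons of BET inhibitor with inactive enantiomer, recomputed 343 times, 1 was called (LYN) and 26 changed sign, 11 of them by more than 1 SE. The other probe set was tried for CD22 alone, and fits of 1 line give no difference between lines. Arrays give no count, and no detection call was used here, so presence of BTK, BANK1 and SCIMP in LP-1 cannot be stated.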
